A study of Mus musculus with 6 samples.

Results

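The amino acid transporter genes of mouse pancreatic islets were described across 3 control libraries and 3 libraries whose label gives a knockout of Dhps, the gene of deoxyhypusine synthase, in β cells. The members were all rows of the count table whose symbol belongs to the families Slc1a, Slc3a, Slc6a, Slc7a, Slc36a, Slc38a and Slc43a followed by a number only. This gave 59 of the 24421 genes in the table. Of these, 34 reached at least 1 CPM (counts scaled to library size) in 3 or more libraries and are reported with their fold changes, and 25 did not. The choice used symbols and level alone, so a gene high in only 1 group could still be kept. Just inside the level limit was Slc38a3, with 9, 27 and 1 counts in controls 1, 2 and 3 against 18, 31 and 35 in knockout-labelled replicates 1, 2 and 3, and just outside it were Slc38a8 (9 to 34 counts) and Slc6a4 (0 to 25 counts), each with 1 library at 1 CPM.

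Both groups are isolated islets of C57BL/6J background. The controls carry only the label control, and whether they carried Cre or a floxed allele is not given in the labels. The knockout label is C57.DhpsloxP.MIP1-CreERT, that is a floxed Dhps allele with a Cre recombinase fused to an estrogen receptor domain and driven by an insulin promoter, so deletion is directed to β cells and the other islet cells keep the gene. Diet, age, sex and the dosing of any inducer are not given in the labels, the prefix HF of the sample names is not spelled out there, and nothing says that the replicates are separate animals, so the p-values speak only of the spread among these libraries, which may be technical. Library totals ranged from 21027737 to 23249895 counts.

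Solute carriers of these families move amino acids and their relatives across the plasma membrane and the membranes of lysosomes and vesicles. In β cells, leucine, glutamine, arginine and alanine feed metabolism and insulin secretion, and the supply of amino acids sets the activity of the growth kinase complex mTORC1. When amino acids are short or the endoplasmic reticulum is stressed, the transcription factor ATF4, often with a C/EBP partner, raises a program that includes several of these transporters. A few members carry other cargo: Slc6a8 carries creatine, Slc6a6 taurine and Slc43a3 purine nucleobases.

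Sequences upstream of 3 members are shown. Slc38a2 passed the test described below, and Slc7a11 and Slc38a5 did not. The start sites of all 3 lie at or close to the ends of the gene models in the count table. Slc7a11 and Slc38a5 are among the few members with a motif marked below, so the 3 do not represent the members. The letters are from RefSeq (GRCm38.p6, the same assembly as mm10), 250 bases ending just before the transcription start site, 5′ to 3′. Capitals mark TGATGNAA, the composite element of ATF4 and C/EBP factors, and CACGTG, an E-box, both searched on both strands.
Slc38a2, chr15:96699729-96699978, minus strand: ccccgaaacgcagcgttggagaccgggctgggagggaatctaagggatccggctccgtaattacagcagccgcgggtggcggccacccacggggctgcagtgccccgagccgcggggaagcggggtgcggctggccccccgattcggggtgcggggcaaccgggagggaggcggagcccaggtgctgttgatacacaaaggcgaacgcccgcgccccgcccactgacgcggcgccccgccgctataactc
Slc7a11, chr3:50443614-50443863, minus strand: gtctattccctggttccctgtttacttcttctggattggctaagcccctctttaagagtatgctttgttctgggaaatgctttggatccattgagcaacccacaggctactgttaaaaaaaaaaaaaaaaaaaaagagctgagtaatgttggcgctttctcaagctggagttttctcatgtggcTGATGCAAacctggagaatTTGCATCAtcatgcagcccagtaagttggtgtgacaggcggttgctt
Slc38a5, chrX:8271131-8271380, plus strand: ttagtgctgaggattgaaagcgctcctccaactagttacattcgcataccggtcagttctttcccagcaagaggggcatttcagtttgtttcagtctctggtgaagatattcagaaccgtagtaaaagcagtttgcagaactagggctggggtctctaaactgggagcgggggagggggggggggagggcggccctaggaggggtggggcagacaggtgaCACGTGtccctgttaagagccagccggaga
The Slc7a11 window held the composite element at 2 places, starting 66 and 47 bases before the start site, in opposite orientations. The Slc38a5 window held 1 E-box, 30 bases before the start site, and the Slc38a2 window held neither motif. The 23 reported members with an entry had 35 windows, since some have several start sites. The other reported members, among them the called Slc1a5, Slc38a1 and Slc7a2, had no entry and were not searched. The composite element was in 3 of the 35 windows (8.57%). These belonged to 2 of the 23 genes, Slc7a11 and Slc7a7, with Slc7a7 counted more than once. The E-box was in 4 windows (11.4%), of Slc36a1, Slc38a5, Slc38a7 and Slc7a14. Among all 32851 upstream windows of the same length, 3.45% held the composite element and 6.02% the E-box. The matching share by gene was not computed. A match in these letters is a description only, and elements further upstream or within the genes were not searched for.

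The targeted gene did not separate the groups. Counts of Dhps were 260, 321 and 312 for controls 1, 2 and 3 and 266, 271 and 225 for knockout-labelled replicates 1, 2 and 3 (−0.07 ± 0.12 SE on the log2 scale, adjusted p = 0.742), summed over all exons and including exons that overlap Wdr83. Directions below therefore refer to libraries labelled knockout. Summed levels of marker genes of several other cell types were higher in those libraries. The summed level of 32 acinar genes was 14654, 12768 and 1308 CPM in controls 1, 2 and 3 and 35035 to 39732 CPM in the knockout-labelled libraries, so that control 3 stood far below the other controls. Of the 29 acinar genes tested, 2 were called higher and 0 lower at an adjusted p of 0.05 in edgeR (6.9%, where 6.76% of all tested genes were called), and 27 were higher at an unadjusted p under 0.05 (26.5% of all tested genes in either direction). The summed level ranged from 198 to 203 CPM against 322 to 435 CPM for 15 macrophage and myeloid genes (7 called higher), from 107 to 347 against 387 to 486 CPM for 14 stellate and fibroblast genes (5 higher), from 400.3 to 519.5 against 563 to 666 CPM for 12 endothelial genes (4 higher), and from 466 to 603 against 836 to 1085 CPM for 10 duct genes (2 of the 9 tested called higher). Of 19 β cell genes 10 were called lower (52.6%, against 2.63% of all tested genes) and 0 higher. The summed level of those 19 overlapped, at 369742 to 498374 CPM in the controls and 395703 to 450587 CPM in the knockout-labelled libraries. For 7 genes of δ, PP and ε cells it was 7387 to 14838 against 17962 to 20634 CPM (2 called higher, 0 lower). Of the lists named here no gene was at 0 in every library. The part of these shifts in any result below was not tested, and in whole islets fewer cells of a type and less RNA per cell cannot be told apart.

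The 34 reported transporters spanned a wide range of levels. Per length, the highest was Slc38a10, a family member placed in the endoplasmic reticulum and Golgi, with a mean over the 6 libraries of 75.0 RPKM (CPM divided by the summed exon length in kb; range 64.2 to 87.8). It was followed by Slc3a2, the heavy chain of the heteromeric exchangers (66.7, range 56.6 to 77.3), Slc7a8, a light chain for large and small neutral amino acids (53.4, range 43.8 to 61.6), Slc38a4, a sodium-coupled carrier of neutral amino acids (49.5, range 43.1 to 56.5), and Slc7a5, the light chain for leucine and other large neutral amino acids (45.1, range 38.5 to 48.1). Neighbours in this order overlapped in range over the libraries. Slc6a6, the taurine transporter, was the sixth at 25.9 RPKM, and these 6 genes made up 67.3% of the summed mean RPKM of all 34. At the other end, Slc38a1 (0.278 RPKM) and Slc7a11 (0.118 RPKM) were the lowest. The summed level of the 34 genes was 2114, 1980 and 2163 CPM in controls 1, 2 and 3, and 2018, 2030 and 2185 CPM in knockout-labelled replicates 1, 2 and 3, so the groups overlapped.

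**Figure D1:**
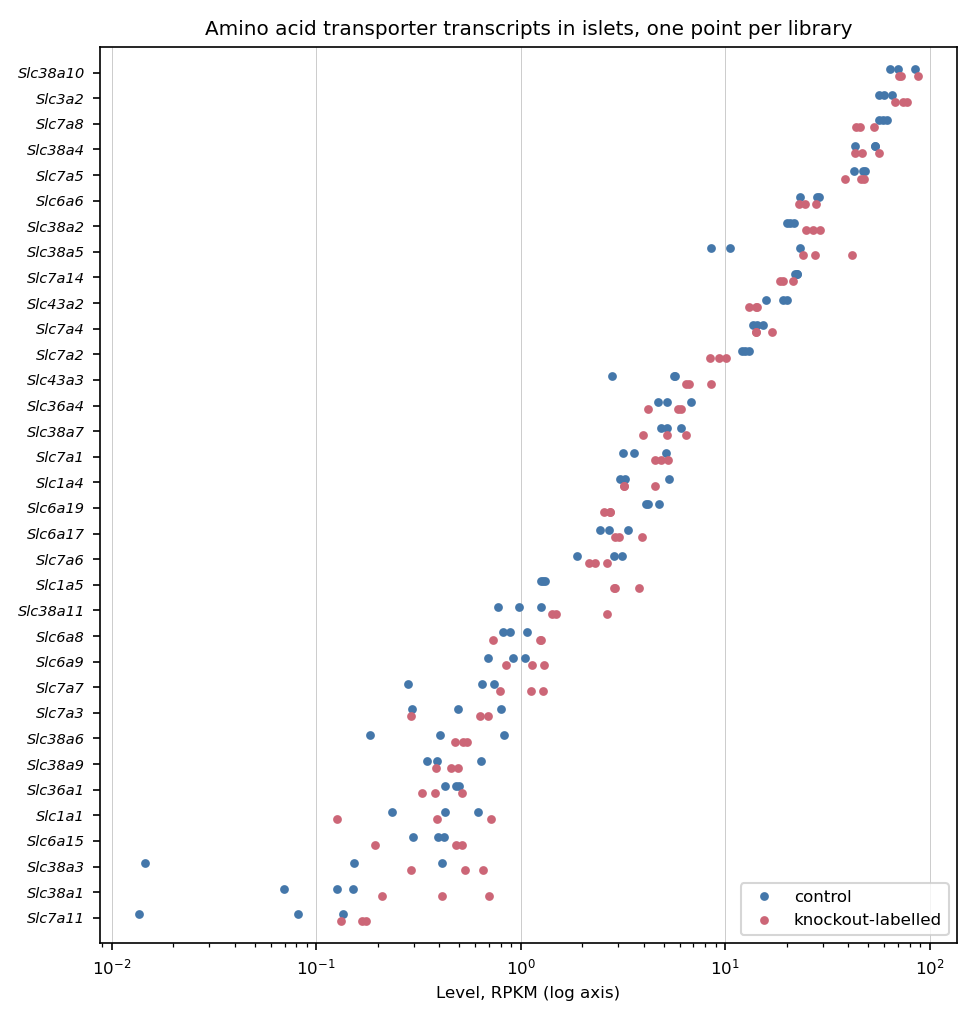
Level of each of the 34 reported transporters in RPKM on a log axis, one point per library, blue for controls and red for knockout-labelled libraries, ordered by the mean. Levels run from below 0.1 RPKM for some libraries of Slc7a11, Slc38a1 and Slc38a3 to 87.8 RPKM for Slc38a10. Red and blue points separate for several genes, among them Slc1a5 and Slc6a19.

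Between the groups, 3 transporters rose, 2 fell and 29 of the 34 were not called. The genes that rose were Slc1a5, Slc38a1 and Slc38a2, and those that fell were Slc6a19 and Slc7a2. Calls use the quasi-likelihood test of edgeR at a Benjamini-Hochberg adjusted p of 0.05 over all 13736 genes tested. The 5 called genes are 14.7% of the 34, where 6.76% of all tested genes were called (4.14% higher and 2.63% lower), and 7.03% of the 12687 tested genes that met the same level rule. The median log2 fold change was 0.07 over the 34 genes and 0.01 over all tested genes. For 13 members the libraries of the groups did not overlap (8 higher and 5 lower, 38.2%), a share close to the 32.1% of all tested genes (16.9% higher and 15.2% lower). The number of calls fell when any library other than control 1 was left out: without control 2, control 3, knockout-labelled replicate 1 or replicate 3 the count was 1 higher and 0 lower, and without knockout-labelled replicate 2 it was 1 and 1. Without control 1 it was 3 and 2, of which Slc1a5 and Slc6a19 were among the 5 and Slc7a1, Slc38a5 and Slc43a2 were not.

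**Figure D2:**
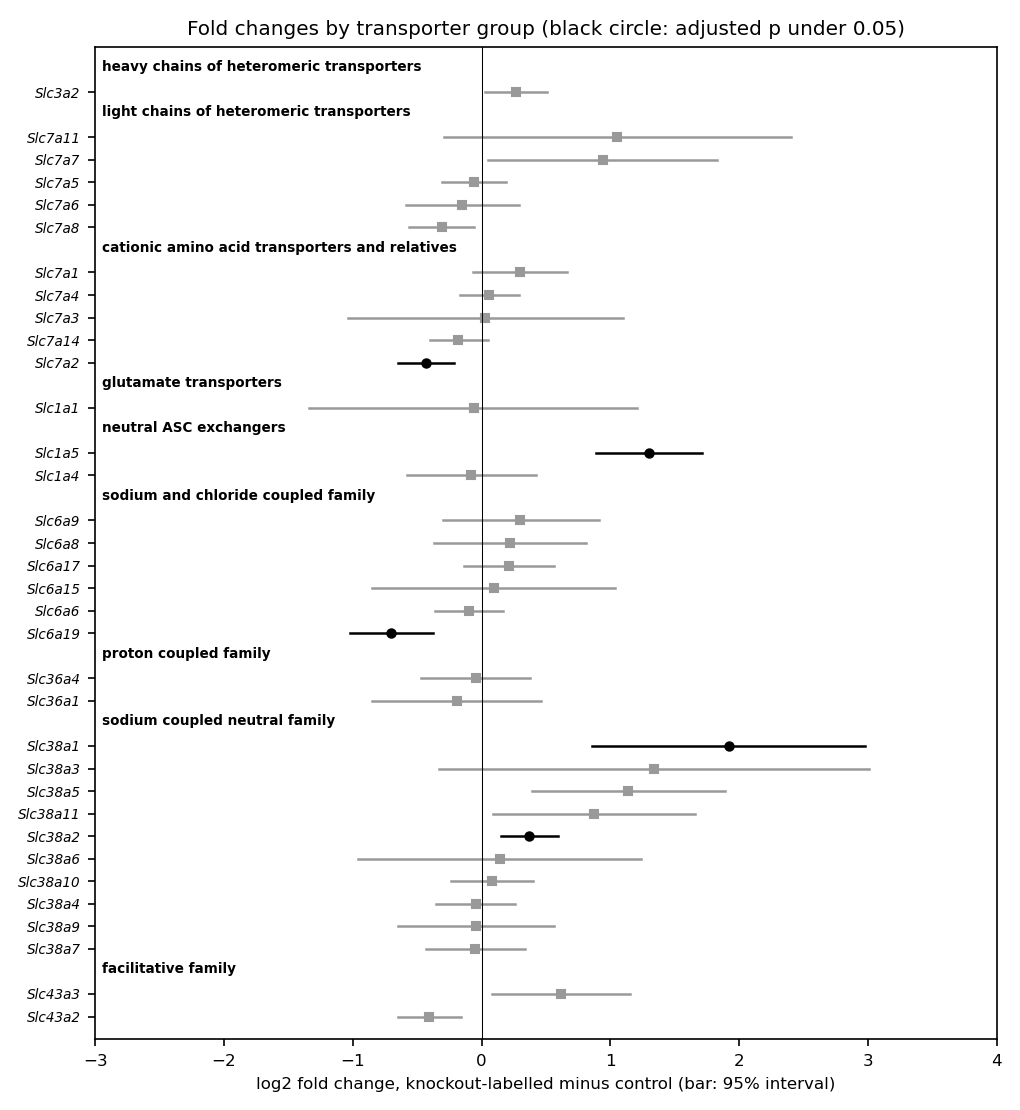
Log2 fold change of the 34 reported transporters, knockout-labelled minus control, grouped by family or transport mode, with bars for 95% intervals. Black circles mark the 5 genes with an adjusted p under 0.05: Slc1a5, Slc38a1 and Slc38a2 to the right of 0, Slc6a19 and Slc7a2 to the left.

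Among the neutral exchangers, Slc1a5 was higher in every knockout-labelled library. Slc1a5 exchanges glutamine, serine and other small neutral amino acids with sodium. Its level was 3.47, 3.54 and 3.64 CPM in controls 1, 2 and 3, and 8.01, 10.4 and 7.87 CPM in knockout-labelled replicates 1, 2 and 3. The controls lay close together and the lowest knockout-labelled library stood at well over the highest control. The log2 fold change was 1.30 ± 0.18 (SE, 95% interval 0.89 to 1.71, adjusted p = 0.01075, n = 3 each, edgeR), a fold of 2.47. It was called without each of the 6 libraries in turn, with a log2 fold change of 1.15 to 1.37 and an adjusted p of 0.0168 to 0.0453. On chromosome 7 (mm10) it spans positions 16781346 to 16798274 with 9 exons, all of them counted. Its relative Slc1a4, an exchanger of alanine, serine and cysteine, measured 15.2 ± 4.91 and 14.4 ± 3.07 CPM (SD) and was not called (−0.08 ± 0.22, interval −0.58 to 0.42).

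The sodium-coupled neutral family Slc38 held the other 2 rises, and 8 of its 10 reported members were not called. Slc38a2, a carrier of alanine, glutamine and proline that cells raise when amino acids are short, measured 101, 92.5 and 95.8 CPM in the controls and 125, 115 and 134.5 CPM in the knockout-labelled libraries. Each knockout-labelled library stood above each control. The change was small, with a log2 fold change of 0.37 ± 0.10 (SE, interval 0.15 to 0.59), and the adjusted p of 0.04996 lay at the threshold. It missed the threshold without each of the 6 libraries in turn (adjusted p 0.0571 to 0.163), with RLE scaling (0.0511) and with no filter on low counts (0.059). The gene spans 96687392 to 96699698 of chromosome 15.

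Slc38a1, a glutamine carrier best known from neurons and proliferating cells, rose from a level of about 1 CPM. Its counts were 23, 14 and 32 in controls 1, 2 and 3 and 40, 125 and 68 in knockout-labelled replicates 1, 2 and 3, or 1.06, 0.583 and 1.27 CPM against 1.76, 5.87 and 3.45 CPM. The groups did not overlap, but knockout-labelled replicate 2 held by far the highest level. The log2 fold change was 1.92 ± 0.48 (SE, interval 0.86 to 2.98, adjusted p = 0.04374), and 1.40 without knockout-labelled replicate 2 (adjusted p = 0.112). The call was lost without any 1 of the 6 libraries, with adjusted p from 0.0517 to 0.146. It neighbours Slc38a2 on chromosome 15, from 96571418 to 96642913. The summed level of 9 lymphocyte genes in the table was 7.35, 70.0 and 17.1 CPM in knockout-labelled replicates 1, 2 and 3 and 9.85 to 17.3 CPM in the controls, the highest value falling in the library where Slc38a1 was highest. Of the 8 lymphocyte genes tested, edgeR called 1 higher and 0 lower (12.5%, where 6.76% of all tested genes were called). Their median log2 fold change was 2.69, and 7 were higher at an unadjusted p under 0.05 (26.5% of all tested genes in either direction). The T cell marker Cd3e was at 0 in control 3 and reached 1.55 CPM in knockout-labelled replicate 2. The part of lymphocyte RNA in the result was not tested, and this pairing of gene and list was chosen after the values were seen.

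Slc38a5, a carrier of glutamine and other neutral amino acids that is known from α cells and exocrine tissue, was not called. It measured 43.2, 15.96 and 19.6 CPM in controls 1, 2 and 3 and 44.7, 51.2 and 77.5 CPM in knockout-labelled replicates 1, 2 and 3. The groups did not overlap, with control 1 just below knockout-labelled replicate 1. Its log2 fold change was 1.14 ± 0.34 (SE, interval 0.39 to 1.89, adjusted p = 0.06811), and without control 1 it was 1.70 with an adjusted p of 0.0113. The summed level of 9 α cell genes, which do not include Slc38a5, was 57152, 36940 and 41059 CPM in controls 1, 2 and 3 and 49719, 54659 and 66467 CPM in knockout-labelled replicates 1, 2 and 3. Controls 2 and 3 were the lowest and knockout-labelled replicate 3 the highest in both series of values. Control 1 departed from this order. Its α cell sum was above those of knockout-labelled replicates 1 and 2, and its Slc38a5 level was below theirs. None of the 8 tested α cell genes was called by edgeR, with 1 at an unadjusted p under 0.05, or by DESeq2. The share of α cells or acinar cells in the level of Slc38a5 was not tested.

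**Figure D3:**
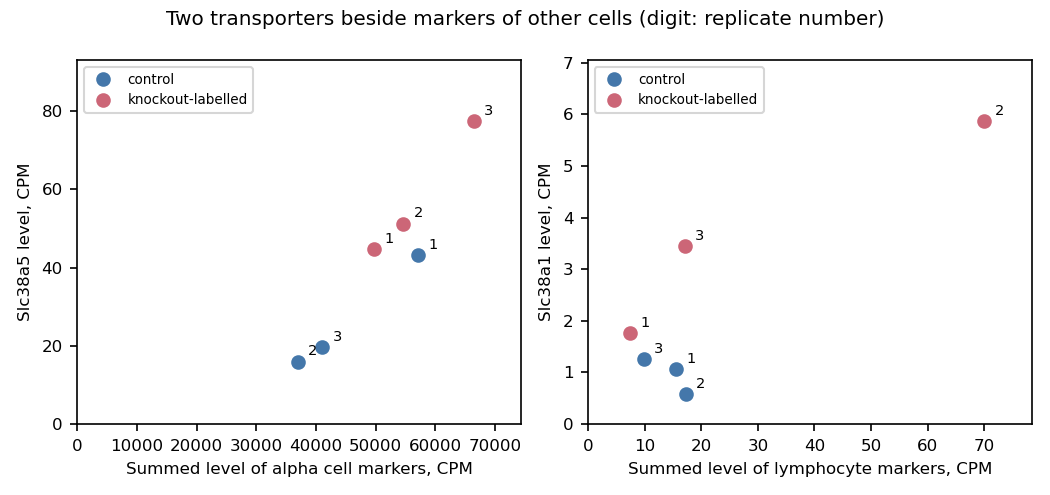
Level of Slc38a5 against the summed level of 9 α cell genes (left) and of Slc38a1 against that of 9 lymphocyte genes (right), all in CPM, one point per library with its replicate number. Slc38a5 is lowest in controls 2 and 3, where α cell genes are lowest. Control 1 lies above knockout-labelled replicates 1 and 2 in α cell genes and below them in Slc38a5. Slc38a1 is highest in knockout-labelled replicate 2, where lymphocyte genes reach 70.0 CPM.

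The remaining 7 members of the Slc38 family that were reported did not pass the test. Slc38a10 measured 379.6, 348 and 459 CPM in the controls and 392, 384 and 475 CPM in the knockout-labelled libraries, with overlap and a log2 fold change of 0.08 (interval −0.24 to 0.40). Slc38a4 lay between 169.6 and 222 CPM in all 6 libraries (−0.04, interval −0.35 to 0.26). Slc38a9, the lysosomal arginine sensor of mTORC1, measured 4.10 ± 1.41 and 3.97 ± 0.486 CPM (−0.04, interval −0.65 to 0.56), and Slc38a7, a lysosomal glutamine exporter, 17.7 ± 2.08 and 17.1 ± 4.07 CPM (−0.05, interval −0.43 to 0.34). Slc38a11 was 1.25 to 2.02 CPM in the controls and 2.29 to 4.27 CPM in the knockout-labelled libraries, without overlap (0.87 ± 0.35, adjusted p = 0.1502). For the rare Slc38a3 (1.34 ± 0.75) and Slc38a6 (0.14 ± 0.49) the intervals reached from −0.33 to 3.01 and from −0.96 to 1.24, and neither was called.

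Of the sodium- and chloride-coupled family, Slc6a19 fell and the other 5 reported members were not called. Slc6a19 is the main carrier of neutral amino acids in the brush border of gut and kidney. It measured 9.95, 11.5 and 10.2 CPM in controls 1, 2 and 3 and 6.64, 6.25 and 6.65 CPM in the knockout-labelled libraries. The groups stood clearly apart. The log2 fold change was −0.70 ± 0.14 (SE, interval −1.02 to −0.38, adjusted p = 0.02804). It was called without control 1 (adjusted p = 0.0322) and missed the threshold without each of the other 5 libraries, with adjusted p between 0.0506 and 0.0944 and a log2 fold change between −0.74 and −0.65. It spans 73681157 to 73700695 of chromosome 13. At the cell surface this carrier is known to need a partner such as Tmem27, which was looked at after the values of Slc6a19 were seen. Tmem27, abundant in β cells, measured 725 ± 93.1 and 1070 ± 341 CPM (SD; log2 fold change 0.56 ± 0.21, adjusted p = 0.1292) and was not called.

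The taurine transporter Slc6a6 measured 144, 174.5 and 177 CPM in the controls and 151, 142 and 171 CPM in the knockout-labelled libraries, which overlap (−0.10 ± 0.12, interval −0.36 to 0.17). Slc6a17, a vesicular carrier of neutral amino acids, measured 17.9 ± 3.01 and 20.7 ± 3.56 CPM (0.21 ± 0.16). The creatine transporter Slc6a8 (3.68 ± 0.521 and 4.29 ± 1.19 CPM), the glycine transporter Slc6a9 (2.90 ± 0.582 and 3.58 ± 0.756 CPM, with exons overlapping Ccdc24) and Slc6a15, a carrier of branched-chain amino acids (1.35 ± 0.240 and 1.45 ± 0.646 CPM), stood low in both groups. Their log2 fold changes lay between 0.10 and 0.30, with overlap in each.

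Of the cationic amino acid transporters and their relatives, Slc7a2 fell and the other 4 reported members were not called. Slc7a2 brings arginine, lysine and ornithine into the cell. It measured 98.8, 94.5 and 102 CPM in controls 1, 2 and 3 and 66.5, 79.4 and 73.6 CPM in knockout-labelled replicates 1, 2 and 3, without overlap. The log2 fold change was −0.43 ± 0.10 (SE, interval −0.65 to −0.21, adjusted p = 0.03492), a fold of 0.743. The call held without knockout-labelled replicate 2 (adjusted p = 0.0359) and was lost without each of the other 5 libraries, with adjusted p from 0.0562 to 0.116. Slc7a2 lies on chromosome 8 from 40862367 to 40922070. Slc7a1, the other widely used carrier of cationic amino acids, measured 36.98, 22.96 and 25.99 CPM in the controls and 32.7, 34.96 and 37.9 CPM in the knockout-labelled libraries. Control 1 overlapped the knockout-labelled libraries, the log2 fold change was 0.30 ± 0.16 (adjusted p = 0.2743), and without control 1 it was 0.52 with an adjusted p of 0.0401.

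Slc7a14, a lysosomal relative, had the highest level of this group per length (18.5 to 22.5 RPKM), with 195 to 199 CPM in the controls and 164 to 190.0 CPM in the knockout-labelled libraries. It did not overlap between groups, yet the difference of −0.18 ± 0.10 on the log2 scale was not called (adjusted p = 0.2884). Slc7a4 was not called, with 46.6 ± 2.53 and 48.7 ± 5.01 CPM (interval of the log2 fold change −0.17 to 0.29). Slc7a3 was near 1 CPM in both groups (0.03 ± 0.48).

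None of the heteromeric transporters was called by edgeR, while 3 of the 6 reported chains had an unadjusted p under 0.05, as did 26.5% of all tested genes. These exchangers pair the heavy chain Slc3a2 with a light chain that sets the cargo. Slc3a2 measured 194, 167 and 176 CPM in the controls and 229, 200.1 and 218 CPM in the knockout-labelled libraries. The lowest knockout-labelled library stood just above the highest control, and the log2 fold change was 0.27 ± 0.11 (interval 0.03 to 0.51, adjusted p = 0.1477). Slc7a8 measured 248, 228 and 239 CPM against 184, 216 and 177 CPM, again without overlap but lower (−0.31 ± 0.11, adjusted p = 0.114). DESeq2 called it, with a log2 fold change of −0.32 and an adjusted p of 0.044.

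Slc7a5, the leucine carrier, measured 169, 166 and 149.9 CPM in the controls and 168, 162 and 135.4 CPM in the knockout-labelled libraries. The groups overlapped and the interval of the log2 fold change ran from −0.31 to 0.19. Slc7a11, which takes up cystine in exchange for glutamate and feeds glutathione synthesis, gave 27, 3 and 19 counts for controls 1, 2 and 3 against 35, 26 and 32 for knockout-labelled replicates 1, 2 and 3. The overlap came from control 1, and the log2 fold change of 1.05 ± 0.60 (interval −0.29 to 2.4, adjusted p = 0.297) was not called. Slc7a7, a light chain for cationic amino acids found in epithelia and macrophages, measured 1.62, 0.708 and 1.86 CPM against 3.21, 2.82 and 1.98 CPM (0.94 ± 0.40, adjusted p = 0.1703). Its exons overlap Oxa1l, whose mean count of 310 was several times that of Slc7a7 (45.2). Slc7a6, a light chain for cationic and large neutral amino acids, measured 9.80 ± 2.43 and 8.84 ± 0.970 CPM.

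Both reported members of the facilitative Slc43 family had fold changes of opposite sign and neither was called. Slc43a2, a carrier of leucine, phenylalanine and methionine described here after its values were seen, measured 114.5, 145 and 138.5 CPM in the controls and 94.7, 102 and 104 CPM in the knockout-labelled libraries. Its groups did not overlap, and the log2 fold change was −0.41 ± 0.11 (interval −0.65 to −0.16, adjusted p = 0.05506), just short of the threshold. It was called by DESeq2 (adjusted p = 0.00921), with no filter on low counts (0.0365) and without control 1 (−0.50, 0.0318). Slc43a3 measured 7.27, 14.8 and 14.6 CPM against 22.3, 17.25 and 16.8 CPM (0.62 ± 0.24, adjusted p = 0.1382). The remaining reported members, the Slc36 family carriers Slc36a1 and Slc36a4 and the glutamate transporter Slc1a1, overlapped between groups. Their log2 fold changes lay between −0.19 and −0.04.

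**Figure D4:**
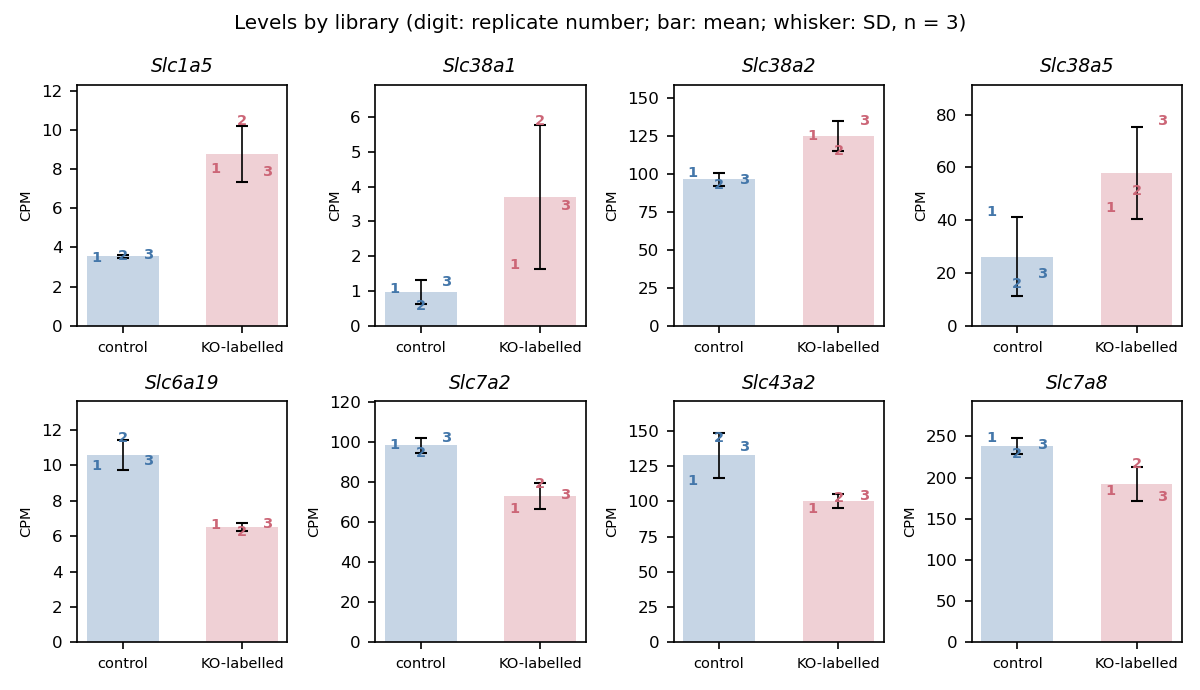
Levels of 8 transporters in CPM, with digits for the replicate numbers, bars for the mean and whiskers for the SD (n = 3 per group, each axis from 0). Slc1a5, Slc38a1 and Slc38a2 rose and Slc6a19 and Slc7a2 fell, while Slc38a5, Slc43a2 and Slc7a8 did not pass the test although their groups do not overlap.

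Of the 25 members below the level limit, 4 had no count in any library and 20 in all had at most 10 counts in each library. They include most neurotransmitter carriers and the kidney light and heavy chains Slc7a9 and Slc3a1, the latter with exons that overlap the abundant Prepl. Slc6a4, the serotonin transporter, gave 0, 4 and 1 counts for controls 1, 2 and 3 against 10, 7 and 25 for knockout-labelled replicates 1, 2 and 3. Slc1a3, a glutamate transporter of glial cells, had 2 counts in each control against 9, 14 and 6 in the other libraries, and Slc43a1, a carrier of large neutral amino acids that is high in acinar cells, had 1, 0 and 4 against 8, 11 and 9. Groups did not overlap for these 3, at 25 counts or fewer in any library. With no filter on low counts, edgeR tested 21 of the 25 and called none of them, with Slc6a4 at an adjusted p of 0.059, Slc1a3 at 0.11 and Slc43a1 at 0.132, each under 0.05 before adjustment (0.00524, 0.015 and 0.0202). DESeq2 called Slc6a4 higher (adjusted p = 0.0354) and none of the others. In edgeR no other member of the 25 had an unadjusted p under 0.05.

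Genes outside these families that respond to amino acid supply were read from 4 lists. Of 23 tested genes of the ATF4 and amino acid response, 4 rose, 0 fell and 19 were not called (17.4% called, against 6.76% of all tested genes; median log2 fold change 0.22, against 0.01). Trib3, a pseudokinase induced by ATF4, rose from 22.8 ± 6.06 to 67.3 ± 21.2 CPM (SD; log2 fold change 1.56 ± 0.24 SE, adjusted p = 0.01291). Ddit3, the stress factor CHOP, measured 40.4, 38.55 and 39.6 CPM in the controls and 142, 76.8 and 86.9 CPM in the knockout-labelled libraries (1.37 ± 0.20, adjusted p = 0.01154), with exons that overlap Mars. Pycr1, an enzyme of proline synthesis (0.83 ± 0.20, adjusted p = 0.04334), and Eif4ebp1, a repressor of cap-dependent translation (0.88 ± 0.20, adjusted p = 0.03411), also rose. Atf4 itself measured 164 ± 14.5 and 191 ± 13.3 CPM and asparagine synthetase Asns 143 ± 3.76 and 154 ± 9.81 CPM, and neither was called (adjusted p = 0.2338 and 0.497). DESeq2 called 5 higher and 1 lower, Atf3 (−0.55, adjusted p = 0.0151). In edgeR, leaving out control 2 ended all 4 calls, leaving out knockout-labelled replicate 1 left 1, and leaving out control 3 or knockout-labelled replicate 3 left 2.

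Amino acid metabolism showed changes in both directions. Of 26 tested enzymes, 2 rose, 2 fell and 22 were not called (15.4% called, against 6.76% of all tested genes; median 0.07). Gad1, which makes GABA from glutamate, fell from 97.9 ± 8.05 to 39.3 ± 15.5 CPM (−1.32 ± 0.23, adjusted p = 0.01687), and glutamine synthetase Glul from 71.1 ± 7.02 to 43.5 ± 2.98 CPM (−0.71 ± 0.11, adjusted p = 0.01232). The mitochondrial alanine aminotransferase Gpt2 (0.88 ± 0.20, adjusted p = 0.03499) and ornithine aminotransferase Oat (0.59 ± 0.13, adjusted p = 0.03394) rose. The count of 4 was 0 without control 2 or knockout-labelled replicate 1, and 2 without control 3 or knockout-labelled replicate 2.

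Of 35 tested genes of amino acid sensing and mTORC1, 0 rose and 1 fell (2.86% called, where 6.76% of all tested genes were called and 2.63% were called lower). The gene that fell was Flcn, the folliculin GTPase activator that acts on RagC and RagD, from 51.5 ± 5.90 to 34.4 ± 2.32 CPM (−0.58 ± 0.11, adjusted p = 0.02413; list median −0.09). The leucine sensor Sesn2 measured 55.6 ± 1.64 and 76.2 ± 19.6 CPM (0.46 ± 0.16, adjusted p = 0.1049). Flcn was not called without control 2, control 3, knockout-labelled replicate 1 or replicate 3, where the list's count was 0, and without knockout-labelled replicate 2 the list's count was 3. None of 16 tested genes in the list of other amino acid and peptide carriers was called by edgeR or by DESeq2, with 3 at an unadjusted p under 0.05 (26.5% of all tested genes), namely Slc15a3, Slc25a38 and Sfxn1. A pair of near relatives whose symbols end in a letter, Slc6a20a and Slc6a20b, belong to that list and were too low to be tested.

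**Figure D5:**
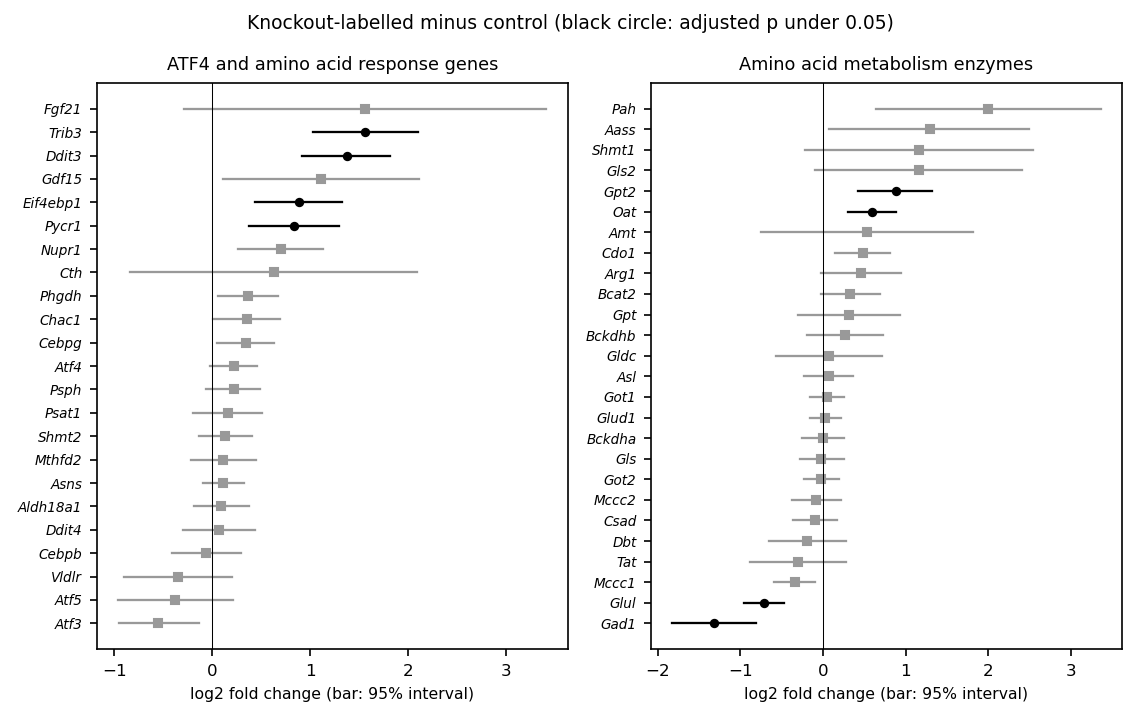
Log2 fold changes, knockout-labelled minus control, of the tested genes of the ATF4 and amino acid response list (left) and of the amino acid metabolism list (right), with bars for 95% intervals and black circles for an adjusted p under 0.05. Trib3, Ddit3, Eif4ebp1 and Pycr1 lie to the right on the left side, and Gad1 and Glul lie to the left on the right side.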

How the data were processed

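The labels' protocols describe poly-dT primed cDNA from a low-input full-length kit, sheared and made into Ion Plus Fragment libraries, which do not mark strand. The submitters' processing notes list the build mm10 and, without roles, edgeR, Subread 1.5.0, featureCounts and STAR 2.4.2a. Which annotation and multi-mapping settings were used is not stated there. The authors deposited raw counts per gene with summed exon lengths in bp, per the file headers, and column names gave the samples.

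In R 4.3.3, the counts were fitted with the quasi-likelihood model of edgeR 4.0.16 (group as sole term, TMM scaling, the default filterByExpr), with Benjamini-Hochberg adjusted p-values over the 13736 genes left by that filter. CPM and RPKM values in the text are TMM-scaled, whereas the limit of 1 CPM in 3 libraries applies to plain totals. SE is the fold change divided by the root of F, both on the log2 scale. Genes that share exons (GenomicRanges 1.54.1, either strand) are marked, because they can share reads. A chi-square per degree of freedom of 10.8 or more within each group shows no library deposited again under another name. The procedure was also run on simulated counts, which held no shifts in cell types, and no result above rests on that run.

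The members, gene lists and tests were chosen with earlier results of these data known. Some genes are not reported here. Named were all called members, the 6 highest by RPKM, the 4 largest changes not called, 7 fixed transporters, up to 6 called genes per list and Dhps. Alternatives were RLE scaling, scaling that ignores acinar and hormone genes, no filter, a filter of 1 CPM in 3 libraries, DESeq2 1.42.0, a replicate block and omission of each library.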

Additional observations from a re-analysis of the deposited data

How the results depend on the processing

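Over all genes, DESeq2 called 945 higher and 674 lower, against 568 and 361 in edgeR, and edgeR without a filter called 620 lower. Leaving out 1 library gave 56 to 534 higher and 8 to 434 lower. Among the transporters, the 3 higher and 2 lower became 1 and 1 with the replicate block, 4 lower in DESeq2, and 1 to 3 higher and 0 to 2 lower when 1 library was left out. The lists' counts of calls ranged over the same omissions from 0 to 3 for amino acid sensing (1 with all libraries, and 2 with no filter or in DESeq2), from 0 to 4 for the ATF4 response and from 0 to 6 for amino acid metabolism. Each omission leaves 2 libraries in a group, and the counts over all genes differed with the library left out. They were 534 higher and 434 lower without control 1, and 56 and 8 without knockout-labelled replicate 1. The cause of these differences was not tested. Same-numbered libraries correlated in their deviations from the group means at −0.06, 0.03 and 0.03, and none correlated best with its own number. These values cannot show whether same-numbered libraries share an origin, and nothing in the labels pairs them. Under the block, Slc38a1 (log2 fold change 1.81), Slc38a2 (0.37) and Slc7a2 (−0.43) missed the threshold, with adjusted p of 0.0709, 0.0719 and 0.0545. Slc1a5 kept its call under all 12 alternatives. Of the 17 transporters refitted by name, the sign changed with 1 library left out for 3 near 0 that were not called: Slc38a10 ran from −0.03 to 0.18 (−0.02 without control 2, −0.03 without knockout-labelled replicate 3), Slc38a4 from −0.16 to 0.03 (0.01 without control 1, 0.03 without knockout-labelled replicate 1), and Slc7a5 from −0.13 to 0.03 (0.03 without knockout-labelled replicate 3). Dhps kept its direction and was not called under any of the 12. For genes near 1 CPM such as Slc38a3 (interval −0.33 to 3.01), counting error and spread between libraries were not separated.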
